A study of Mus musculus with 4 samples.

Results

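The unfolded protein response (UPR) and ER chaperone genes were read out of an RNA sequencing experiment on mAEC, murine endothelial cells from the aorta that are grown in culture. The set was chosen by function, as 33 genes for the stress sensors of the endoplasmic reticulum (ER), its chaperones, its disulfide isomerases and its degradation machinery, matched by symbol to the 27179 rows of the deposited gene counts. All 33 had a row, 32 under the RefSeq symbol used here and Ero1l under its RefSeq name Ero1a. Control cells were kept in normal medium, and the conditioned medium group received the supernatant of TNFα+ CD68+ macrophages, TNFα being a cytokine of inflammation and CD68 a protein of macrophage lysosomes. Both groups had 2 libraries, which the series calls biological replicates. The sources used here give neither the dose of the supernatant nor the time of exposure.

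Proteins that enter the secretory pathway are threaded into the ER through the SEC61 translocon, folded there by chaperones such as BiP (encoded by Hspa5) and cross-linked by disulfide isomerases. When unfolded protein accumulates, the membrane sensors IRE1α (Ern1), ATF6 and PERK (Eif2ak3) raise the transcription of chaperone and degradation genes and slow translation. IRE1α acts by splicing the Xbp1 transcript, a step that gene counts do not show. Endothelial cells secrete large amounts of matrix, adhesion and clotting proteins and depend on this machinery.

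Much of the transcriptional response acts through the ER stress response element (ERSE), in which CCAAT and CCACG are set 9 bases apart. Exact matches were searched on both strands from 250 bases before to 50 bases after each gene start in RefSeq promoters of GRCm38.p6, the build also called mm10. Of the 33 members 27 had a promoter sequence, and 6 of these 27 (22.2%) held the full element, against 0.137% of the 27025 genes with a promoter. The elements are shown to place this sequence in the members. The members were chosen by function as genes of this response, so their high share is not independent evidence of their part in it. They are printed so that the element reads from CCAAT to CCACG, with the fixed letters in capitals.
Hspa5, chr2:34772025-34772043, plus strand: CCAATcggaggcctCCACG
Hsp90b1 distal, chr10:86705638-86705656, minus strand: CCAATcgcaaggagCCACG
Hsp90b1 proximal, chr10:86705533-86705551, plus strand: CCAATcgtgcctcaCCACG
Pdia6, chr12:17266491-17266509, plus strand: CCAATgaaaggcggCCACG
Dnajc3, chr14:118937827-118937845, plus strand: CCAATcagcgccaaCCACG
Creld2, chr15:88819520-88819538, minus strand: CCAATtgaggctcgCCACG
Syvn1, chr19:6046532-6046550, plus strand: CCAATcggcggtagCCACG
These matches began between 44 bases (Syvn1) and 212 bases (Hsp90b1) before the gene start. A related compact element, ERSE-II (ATTGG and CCACG set 1 base apart), was found in Herpud1, 52 bases before its start, and in Dnajb11, within the transcript. It was present in 0.0444% of all genes with a promoter. The UPR element TGACGTGG was found in Vcp, 114 bases before its start, in Sec24d, and in 0.714% of all such genes. In Sec24d it lay 26 bases before a RefSeq start inside the gene, at chr3:123267470-123267477, whereas the gene begins at 123264801.

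Among the 33 genes, Ero1l was the exception to small differences: it was 1.62-fold higher in conditioned medium, and the other 32 had folds between 1.20-fold lower and 1.19-fold higher. Ero1l encodes the oxidase that recharges protein disulfide isomerase. P4hb, which encodes protein disulfide isomerase itself, rose 1.13-fold, while Hspa5, Ssr1, Vcp and Ppp1r15a fell by at most 1.20-fold. By edgeR's quasi-likelihood test at an adjusted p under 0.05, 2 of 33 members rose, 4 fell and 27 were not called. The 6 calls are 18.2% of the members, near the 16.8% of all 13897 tested genes that were called. By direction the background was 8.53% higher and 8.23% lower. At an unadjusted p under 0.05 there were 14 members (42.4%), against 29.5% of all tested genes. All 33 members passed the filter on low counts.

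The members' median log2 fold change was -0.03, against 0.00 over all genes tested, and the median size of the change was 0.10 on the log2 scale, against 0.13. For 32 of the 33 (97%), the 95% interval of the fold change lay within 1.5-fold either way, with Ero1l the remaining member. The share was 76.2% of all tested genes and 96.8% of the 126 further ER genes described below. These sets were not matched for count level, on which the width of an interval depends. As a share of all counts, the 33 genes made up 0.537% and 0.531% under control medium and 0.537% and 0.536% after treatment. In 23 of 33 members both treated libraries lay on the same side of both controls in normalised count (CPM, the count scaled to the normalised library total), 9 with conditioned medium above and 14 with it below. The same was true of 57.2% of all 13897 tested genes, 3956 with conditioned medium above and 3997 with it below. The share of counts given above includes Ero1l. Without it, the other 32 members summed to 5224 and 5099 CPM in control and to 5039 and 5037 CPM in conditioned medium. Both treated sums lay below both control sums.

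**Figure D1:**
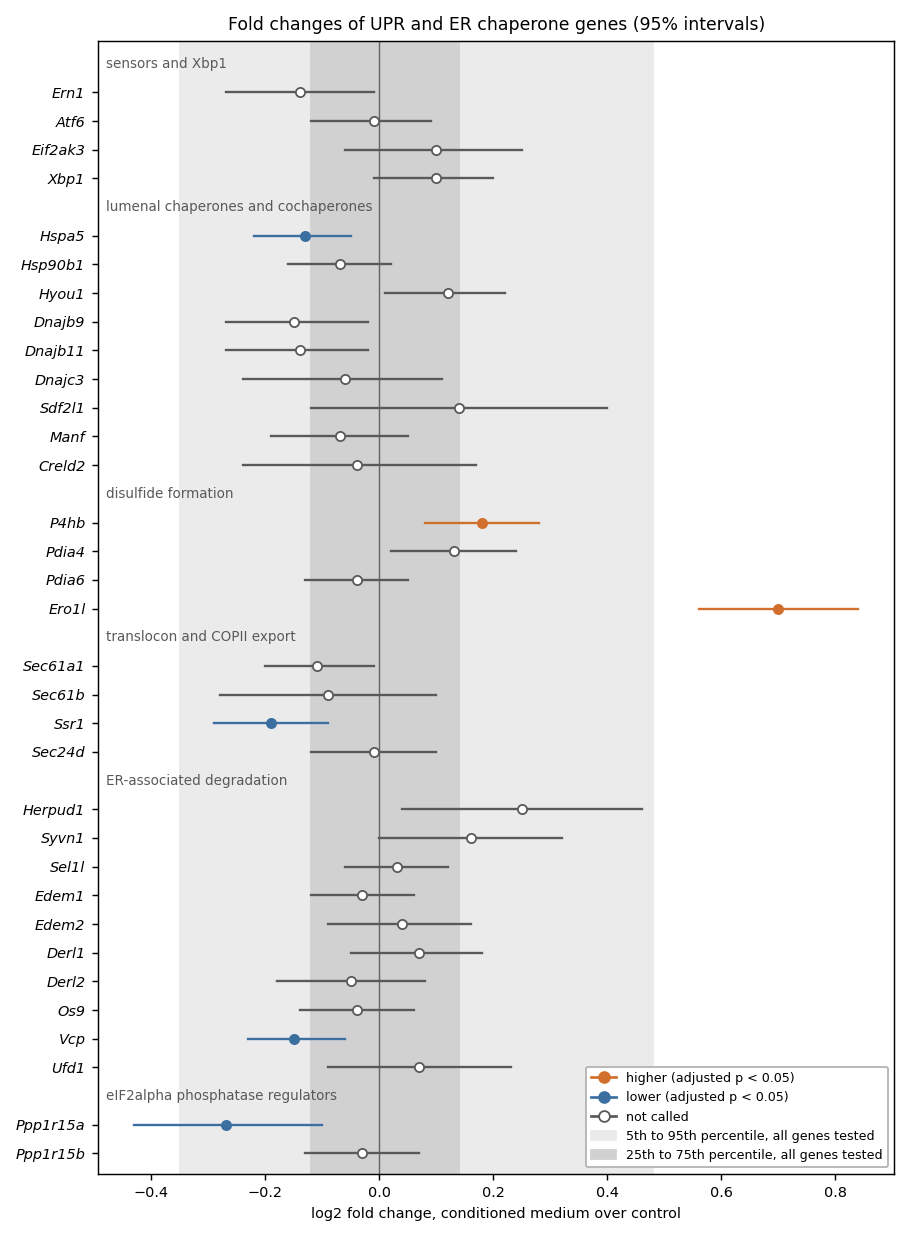
Log2 fold change of each of the 33 genes in conditioned medium over control, by role, with 95% intervals; filled points passed an adjusted p of 0.05, and the grey bands hold the middle of all 13897 tested genes (dark, 25th to 75th percentile, -0.12 to 0.14; light, 5th to 95th, -0.35 to 0.48). Ero1l, at 0.70, is the only member whose point lies beyond the light band.

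The facts of the whole table bear on these values as follows. Library totals ran from 13815695 to 18005840 counts, at which 3 counts equalled 0.167 to 0.217 CPM. The log2 ratio between replicates had an SD of 0.134 in control and 0.103 in conditioned medium over 9633 genes. The endothelial markers Pecam1, Cdh5, Kdr, Tek, Tie1, Erg, Vwf and Emcn summed to 6345 to 6419 CPM per library, of which Vwf held at most 3.49 CPM, and Kdr and Emcn fell. Of 8 macrophage markers 3 were abundant enough to test and 0 of these were called by edgeR; their summed level was 230 and 260 CPM in control and 253 and 260 CPM in conditioned medium, nearly all from Cd68, while Adgre1 and Tyrobp were at 0 in every library. Pdgfra, a fibroblast marker (at most 32.0 CPM), and Sdc1, listed with plasma cell genes (at most 54.3 CPM), rose, while Col1a2 and Lum of the fibroblast list and Tnfrsf17 of the plasma cell list were at 0. Smooth muscle and epithelial lists summed to at most 2.72 and 9.45 CPM. Whether any of these moved the members was not tested. Nothing in the sources tells whether the libraries came from separate cultures or 1 batch, so p-values measure the spread between these libraries, which may be technical.

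Of the sensors, none was called. Ern1, which encodes the kinase and RNase IRE1α, stood at 67.0 and 74.0 CPM in control and at 60.9 and 66.5 CPM in conditioned medium. Its groups were separated by less than 1 CPM, and its log2 fold change was -0.14 ± 0.06 (SE; edgeR adjusted p = 0.135). Without control replicate 1 it was called, at -0.21 (edgeR adjusted p = 0.0119, the lowest of its alternatives, which reached 0.63). Atf6, the sensor that is cut in the Golgi to release a transcription factor, stood at 116 and 115 CPM in control and at 117 and 111 CPM in conditioned medium. These overlapped, and the 95% interval of its log2 fold change ran from -0.12 to 0.09. Eif2ak3, the PERK kinase gene, stood at 31.7 and 32.4 CPM in control and at 35.5 and 33.3 CPM in conditioned medium, an interval of -0.06 to 0.25. Xbp1, the transcription factor gene downstream of IRE1α, stood at 88.8 and 87.5 CPM in control and at 95.2 and 93.2 CPM in conditioned medium. The groups did not overlap, but its log2 fold change of 0.10 ± 0.05 was not called (edgeR adjusted p = 0.223).

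Among 9 lumenal chaperones and cochaperones 1 fell, Hspa5, and 0 rose, with a median log2 fold change of -0.07. Hspa5 encodes BiP, the ER's Hsp70 and the protein that holds the sensors inactive, and lies on chromosome 2, 34772090 to 34776529, in mm10. It stood at 485 and 477 CPM in control and at 431 and 447 CPM in conditioned medium, on 5969 to 8060 counts per library. Both treated libraries lay below both controls (log2 fold change -0.13 ± 0.04; edgeR adjusted p = 0.0342). The call was lost in DESeq2 (adjusted p = 0.129), without conditioned medium replicate 1 (-0.11; adjusted p = 0.432), without replicate 2 of that group (-0.16; adjusted p = 0.224), with upper-quartile scaling (adjusted p = 0.0552) and with no count filter (adjusted p = 0.0503). Its adjusted p was lowest, at 5.86e-04, without control replicate 2. Its proximal promoter is shown because the element above lies in it. The 120 bases before the start, chr2:34771970-34772089, plus strand, have the fixed letters of the ERSE in capitals.
Hspa5 upstream: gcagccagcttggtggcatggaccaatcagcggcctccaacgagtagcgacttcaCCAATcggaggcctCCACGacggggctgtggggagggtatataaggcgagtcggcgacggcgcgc

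Hsp90b1, which encodes GRP94, the ER's Hsp90, had the highest level per length of the 33. It stood at 822 and 775 CPM in control and at 756 and 765 CPM in conditioned medium. The groups did not overlap, and the log2 fold change of -0.07 ± 0.04 was not called (edgeR adjusted p = 0.297). It was called without control replicate 2, at -0.11 (edgeR adjusted p = 0.00399). Dnajb9, a BiP cochaperone whose transcript is a sensitive target of spliced XBP1, stood at 59.6 and 56.3 CPM in control and at 51.7 and 52.9 CPM in conditioned medium. Its log2 fold change was -0.15 ± 0.06 (edgeR adjusted p = 0.105). Dnajb11, another BiP cochaperone, had a like value of -0.14 ± 0.06 (edgeR adjusted p = 0.111). Both had non-overlapping groups and were called without control replicate 2, at -0.19 and -0.18 (edgeR adjusted p = 0.0382 and 0.0378).

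Hyou1, which encodes the large ER chaperone GRP170, stood at 113 ± 3.86 CPM in control and 122 ± 1.26 CPM in conditioned medium (mean ± SD, n = 2; edgeR adjusted p = 0.116). It was called without control replicate 2, at 0.15 (edgeR adjusted p = 0.0281). Manf, a secreted ER stress factor, was at 67.7 ± 0.0797 and 64.8 ± 2.84 CPM. Dnajc3, which encodes the PERK inhibitor p58IPK, Creld2, an ER stress-inducible disulfide protein, and Sdf2l1, a BiP partner, had overlapping groups. Dnajc3 and Creld2 had log2 ratios of -0.27 and -0.29 between the 2 control libraries, larger in size than the -0.06 and -0.04 between groups. Sdf2l1 was at 12.2 ± 0.248 and 13.3 ± 1.84 CPM, and had the widest interval of this role, -0.12 to 0.40.

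Of the 4 members for disulfide formation 2 rose and 0 fell. Ero1l lies on chromosome 14, 45283087 to 45318572, in mm10. The oxidase it encodes passes electrons from protein disulfide isomerase to oxygen, and it is known as a gene induced by hypoxia as well as by ER stress. It stood at 216 and 170 CPM in control and at 311 and 315 CPM in conditioned medium, on 2477 to 5690 counts per library. Both treated libraries exceeded the higher control, and the controls lay further apart from each other than the treated libraries did. The log2 fold change was 0.70 ± 0.07 with a 95% interval of 0.56 to 0.84 (edgeR adjusted p = 5.83e-07), higher than that of 97.6% of all tested genes. It was 0.89 without control replicate 1 and 0.53 without control replicate 2. Ero1l was called in 14 of 15 alternatives, DESeq2 and all 4 left-out libraries among them. With a robust estimate of the spread, which gives genes with discordant replicates a larger variance, the call was lost (adjusted p = 0.112). The adjusted p of Ero1l depended on how the spread was estimated, so its lowest value over the alternatives is not a measure of the strength of evidence.

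P4hb stood at 413 and 378 CPM in control and at 453 and 442 CPM in conditioned medium. The groups did not overlap (log2 fold change 0.18 ± 0.05; edgeR adjusted p = 0.0101). DESeq2 also called it. It lost its call without conditioned medium replicate 1 (log2 fold change 0.16) and without replicate 2 of that group (0.20). Its log2 fold change was 0.24 without control replicate 1 and 0.12 without control replicate 2. Pdia4, an isomerase also called ERp72, was at 140 ± 1.86 and 153 ± 11.5 CPM (log2 fold change 0.13 ± 0.05; edgeR adjusted p = 0.0913). It was called without control replicate 1 (0.15; edgeR adjusted p = 0.0217), and its value was 0.05 without conditioned medium replicate 2. Pdia6, an isomerase that acts with BiP and on IRE1α, was at 335 ± 2.16 and 326 ± 5.99 CPM, an interval of -0.13 to 0.05.

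The Ero1l promoter held no exact ERSE, ERSE-II or UPR element in the window searched. Such a search cannot show which elements act on the gene, and the cause of its change was not tested. The hypoxia response element has the core ACGTG or GCGTG, and both cores were searched. They were found in 13 and 17 of the 27 members with a promoter (48.1% and 63%), against 21.8% and 35.2% of all genes with one. The shares were alike, 47.6% and 63.8%, in 105 further ER genes with a promoter, so they are not particular to the members. ACGTG also lies inside the UPR element TGACGTGG, and its reverse complement overlaps the end of CCACG where a T follows. The 120 bases before the Ero1l start, chr14:45318573-45318692, minus strand, are shown because this member had the largest change, and have these cores in capitals, read on either strand. Another GCGTG of Ero1l begins 128 bases before the start, outside these 120 bases. Hspa5 also holds both cores in its window, ACGTG from 155 bases before the start and GCGTG from 45 bases after it, outside the stretch printed above.
Ero1l upstream: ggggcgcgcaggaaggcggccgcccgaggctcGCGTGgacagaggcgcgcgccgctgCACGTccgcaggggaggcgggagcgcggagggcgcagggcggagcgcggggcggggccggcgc

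**Figure D2:**
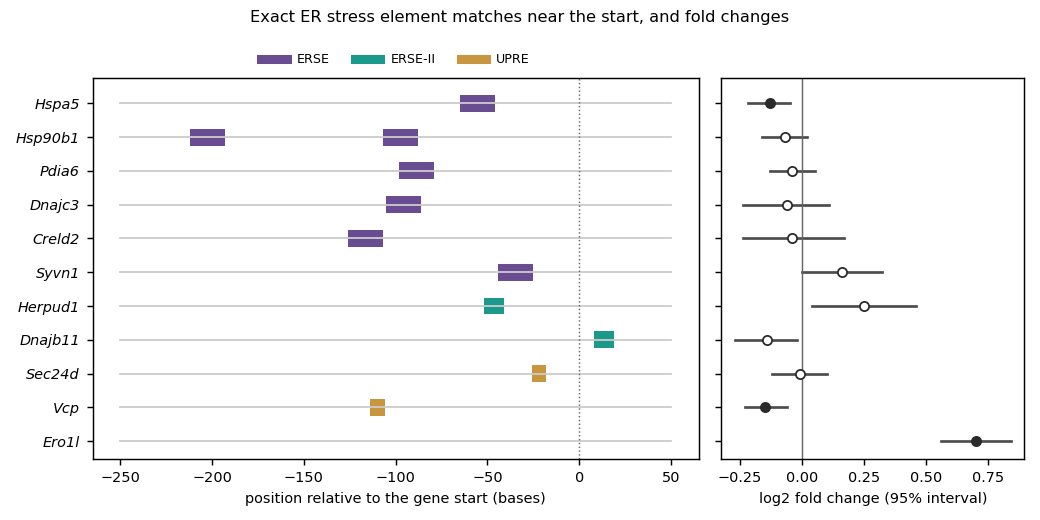
Left, exact ERSE, ERSE-II and UPR element (UPRE) matches from 250 bases before to 50 bases after the start of each member that holds one, with Ero1l, which holds none; right, the log2 fold change of the same genes with 95% intervals, filled where called. The 6 genes with an exact ERSE match lie between -0.13 and 0.16, and Ero1l at 0.70. Whether any element bears on these changes was not tested. For Sec24d the start used lies inside the gene.

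Of the 6 members with an exact ERSE match in the window 1 was called, a share near the 16.8% of all tested genes. Their log2 fold changes ran from -0.13 (Hspa5) to 0.16 (Syvn1) with a median of -0.05. The 21 members with a promoter and no exact ERSE match in it ran from -0.27 to 0.70 with a median of -0.01, and 5 of them were called. Variant or more distant elements were not searched, so these members are not shown to lack an ERSE. For Edem1, 1 of them, the start used lay inside the gene, as for Sec24d. These are counts, and the sets were not tested against each other. Herpud1 and Dnajb11, which hold ERSE-II, were at 0.25 and -0.14, and Sec24d and Vcp, which hold the UPR element, at -0.01 and -0.15.

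All 4 members for translocation and export had negative values, from -0.19 to -0.01, and 1 was called. Of all 13897 tested genes 6933 were negative. The signs of Sec61b and Sec24d changed in some alternatives. Ssr1, which encodes the alpha subunit of the translocon-associated protein complex, stood at 172 and 160 CPM in control and at 148 and 143 CPM in conditioned medium. Both treated libraries were below both controls (log2 fold change -0.19 ± 0.05; edgeR adjusted p = 0.00944). The call was lost in DESeq2 (adjusted p = 0.0845). It was also lost without conditioned medium replicate 1 (log2 fold change -0.22) or replicate 2 (-0.16). Sec61a1, the pore-forming subunit of the translocon, was at 138 ± 2.65 and 128 ± 1.79 CPM (log2 fold change -0.11 ± 0.05; edgeR adjusted p = 0.14). Sec61b, a small translocon subunit, and Sec24d, a cargo adaptor of the COPII coat that buds vesicles from the ER, had overlapping groups and intervals of -0.28 to 0.10 and -0.12 to 0.10.

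Among 10 genes of ER-associated degradation, in which misfolded proteins are drawn back to the cytosol for the proteasome, 1 fell and 0 rose. Vcp, which encodes the ATPase p97 that pulls substrates out of the membrane, stood at 475 and 469 CPM in control and at 430 and 422 CPM in conditioned medium. The gap between the groups was larger than the spread within either (log2 fold change -0.15 ± 0.04; edgeR adjusted p = 0.0176). DESeq2 did not call it (adjusted p = 0.0694), nor did edgeR without conditioned medium replicate 1 (log2 fold change -0.16) or replicate 2 (-0.13). Ufd1, a cofactor of p97, was at 33.4 ± 1.82 and 35.0 ± 1.68 CPM and was not called.

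The largest value among the degradation genes was that of Herpud1, a scaffold of the ubiquitin ligase complex and a marker of ER stress. It was at 18 and 16.1 CPM in control and at 19.3 and 21.2 CPM in conditioned medium, on 236 to 383 counts per library. Its groups did not overlap and its log2 fold change of 0.25 ± 0.10 was not called (edgeR adjusted p = 0.0938). Without control replicate 1 it was called, at 0.34 (edgeR adjusted p = 0.0308). Syvn1, the ubiquitin ligase HRD1, was at 32.2 ± 1.44 and 36.2 ± 2.41 CPM (log2 fold change 0.16 ± 0.08; edgeR adjusted p = 0.163), and its partner Sel1l had 295 and 284 CPM in control and 296 and 294 CPM in conditioned medium. Edem1 and Edem2, which direct mannose-trimmed glycoproteins to degradation, Derl1 and Derl2, the derlin channel proteins, and the lectin Os9 had log2 fold changes from -0.05 to 0.07, and none was called. Edem1 was at 514 ± 4.74 and 503 ± 18.4 CPM.

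The last role held the regulatory subunits that lead protein phosphatase 1 to eIF2α and so reverse the PERK signal. Ppp1r15a, the stress-inducible subunit GADD34, stood at 88.0 and 104 CPM in control and at 71.5 and 87.5 CPM in conditioned medium. The higher treated library lay just under the lower control, and within each group replicate 2 was above replicate 1, by log2 ratios of 0.25 and 0.29. Its log2 fold change was -0.27 ± 0.08 (edgeR adjusted p = 0.0238), the steepest fall of the 33. It was -0.13 without control replicate 2 (adjusted p = 0.101) and -0.14 without conditioned medium replicate 1 (adjusted p = 0.45), both no longer called, and -0.38 and -0.43 without the other library of each group. The call was also lost in DESeq2 (adjusted p = 0.505), with a robust spread (0.387), with no count filter (0.0695) and with thinned counts (0.0748). Ppp1r15b, the constitutive subunit, stood at 144 and 142 CPM in control and at 142 and 139 CPM in conditioned medium, an interval of -0.13 to 0.07.

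**Figure D3:**
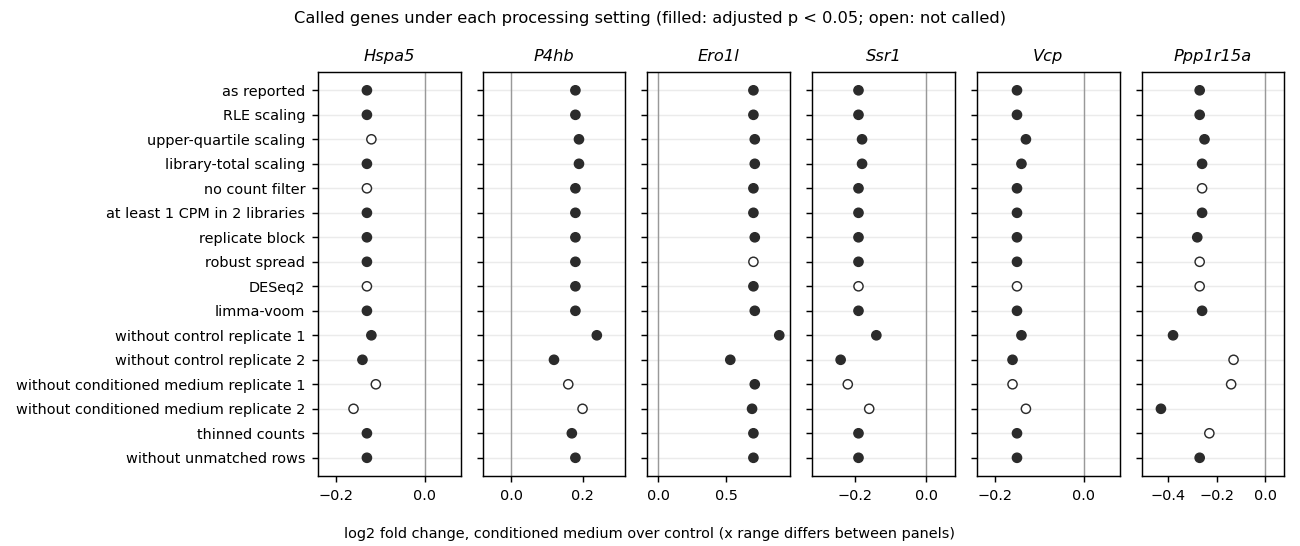
Log2 fold change of the 6 called genes under each processing setting, filled where the adjusted p was under 0.05 and open where not; the x range differs between panels. The direction is the same in every setting, and without either conditioned medium library most of the points other than those of Ero1l are open.

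The number of members called differed between settings, as did the number over all genes. DESeq2 called 2 members, Ero1l and P4hb, as it called 6.61% of all genes. Without conditioned medium replicate 1 the test called 1 member (5.71% of all genes), and without replicate 2 it called 2 (4.03% of all genes). Without control replicate 1 or 2 it called 9 members each time, with 17.1% and 21.9% of all genes called. With a block for the replicate number it called 6 members and 19.2% of all genes.

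Levels can be set between genes only per length, here as mean CPM per kilobase of the exons that GENCODE M21 joins to each gene, which may differ from the models the authors counted on. On this scale the chaperone Hsp90b1 led in control at 198 CPM per kilobase, followed by P4hb (138), Hspa5 (114), Vcp (97.3), Pdia6 (89.4), Edem1 (79.7), Pdia4 (58.5) and Os9 (57.3). In conditioned medium the first 7 kept these places, at 189, 157, 104, 87.8, 87.1, 78.0 and 64.0 CPM per kilobase. Ero1l went from 36.5 to 59.3 CPM per kilobase and stood above Os9, at 55.7. The 3 sensors were low in both groups, with Atf6 at 12.5 and 12.4, Ern1 at 8.62 and 7.79 and Eif2ak3 at 5.32 and 5.70 CPM per kilobase. This was not particular to the sensors, since Dnajc3 was at 6.32 and 6.06 and Derl2 at 6.24 and 6.03. Vcp and Pdia6 lay within 1 CPM per kilobase of each other in conditioned medium, and Pdia4 and Os9 within 2 in control, so their order depends on the gene models. For all 33, fewer cells making a transcript and less RNA per cell cannot be told apart in these bulk libraries.

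**Figure D4:**
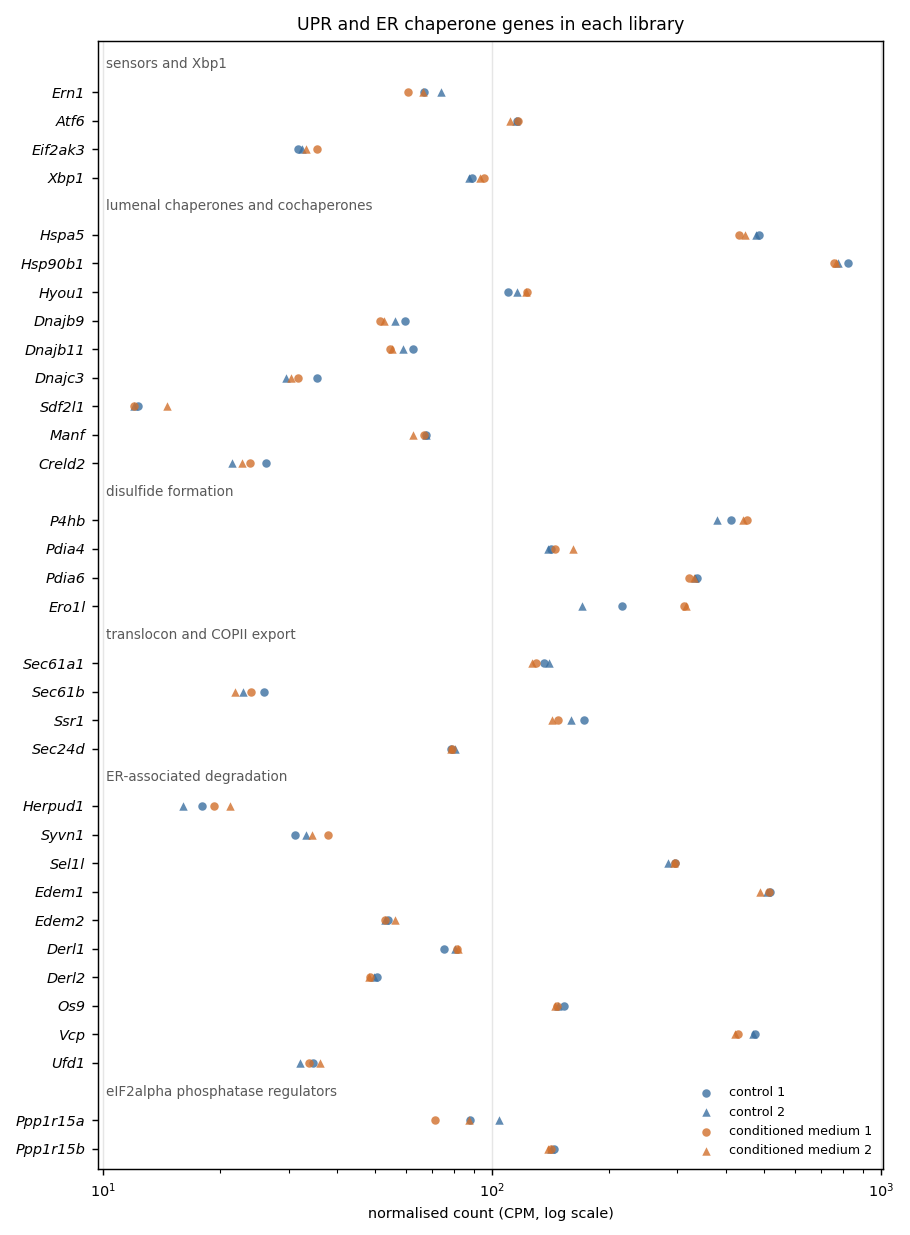
Normalised count (CPM, log axis) of each of the 33 genes in each of the 4 libraries, by role, with control in blue and conditioned medium in orange. Levels run from about 12 CPM for Sdf2l1 to 822 CPM for Hsp90b1, and the gap between the groups is widest for Ero1l.

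The rest of the ER machinery was described from 129 further genes in 9 functional lists, of which 126 passed the count filter. The 3 below it were Derl3, Creb3l1 and Ern2, with Ern2, the IRE1 form of mucosal epithelia, at 0 counts in all libraries. Of the 126, 3 rose, 12 fell and 111 were not called, so that 11.9% were called against 16.8% of all tested genes, and their median log2 fold change was -0.02. The largest absolute value was 0.41.

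Of 12 oligosaccharyltransferase genes, which attach N-glycans to proteins entering the ER, 2 fell: Ostc from 39.9 ± 1.26 to 32.7 ± 0.647 CPM (a log2 change of -0.29 ± 0.07; edgeR adjusted p = 0.00699) and Magt1 by 0.23 ± 0.06. Their list had a median of 0.00. Among 16 other translocon, signal peptidase and signal recognition receptor genes 2 fell, both signal peptidase subunits: Spcs3 from 137 ± 6.17 to 119 ± 0.997 CPM (-0.20 ± 0.05; edgeR adjusted p = 0.00664) and Spcs2 by 0.15 ± 0.05. The median of that list was -0.07.

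Of 16 other disulfide isomerases and oxidases 3 fell and 0 rose, with a median of -0.06. The peroxiredoxin gene Prdx4, an ER oxidant acceptor that can also recharge isomerases, was at -0.20 ± 0.06, the thioredoxin-like Txndc12 at -0.19 ± 0.06 and the membrane isomerase Tmx3 at -0.19 ± 0.06. Ero1lb, the paralog of Ero1l, holds an ERSE in its promoter, as do Calr and Canx. It stood at 15.2 and 15.4 CPM in control and at 16.6 and 16.5 CPM in conditioned medium, and was not called. The lectin chaperone list had 1 fall among 13, the cargo receptor Lman1 (-0.16 ± 0.05). Its central chaperones Calr and Canx were at 0.11 ± 0.05 and -0.12 ± 0.04 and were not called (edgeR adjusted p = 0.11 and 0.0696).

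Among 21 tested genes of the other degradation list 2 rose and 2 fell. Rnf5, a membrane ubiquitin ligase, was at 9.36 ± 0.364 CPM in control and 12.4 ± 0.984 CPM in conditioned medium (0.41 ± 0.13 on the log2 scale; edgeR adjusted p = 0.03) and Marchf6, another ER ligase, rose by 0.17 ± 0.05. Ube2j1, the ubiquitin-conjugating enzyme that works with HRD1, fell by 0.19 ± 0.05, and the remaining fall was Ubxn4 at -0.15 ± 0.05 (edgeR adjusted p = 0.0497). Wfs1, which encodes wolframin, a membrane protein that restrains ATF6, rose from 40.4 ± 0.954 to 49.5 ± 1.38 CPM (0.29 ± 0.06; edgeR adjusted p = 0.0034). It was the call among 11 tested transcription factor, protease and sensor regulator genes.

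Of 7 PERK branch genes 1 fell, Eif2s1, which encodes eIF2α itself (-0.15 ± 0.05; edgeR adjusted p = 0.0298). Atf4, the transcription factor translated when eIF2α is phosphorylated, was at 139 and 138 CPM in control and 124 and 140 CPM in conditioned medium. Ddit3, which encodes the proapoptotic factor CHOP, was at 11.9 and 12.2 CPM in control and 10.5 and 12.0 CPM in conditioned medium. Both overlapped between groups. Of 18 other BiP cochaperones and lumenal factors 1 fell, the prolyl isomerase gene Fkbp9 (-0.15 ± 0.05). Of 12 other COPII coat genes 0 were called by edgeR or DESeq2, and 1, Sec24c, had an unadjusted p under 0.05 (0.11 ± 0.05; edgeR adjusted p = 0.126). DESeq2 called 0 of the 126, against 6.61% of all genes. The number that edgeR called changed with the library left out, as did the number over all genes.

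**Figure D5:**
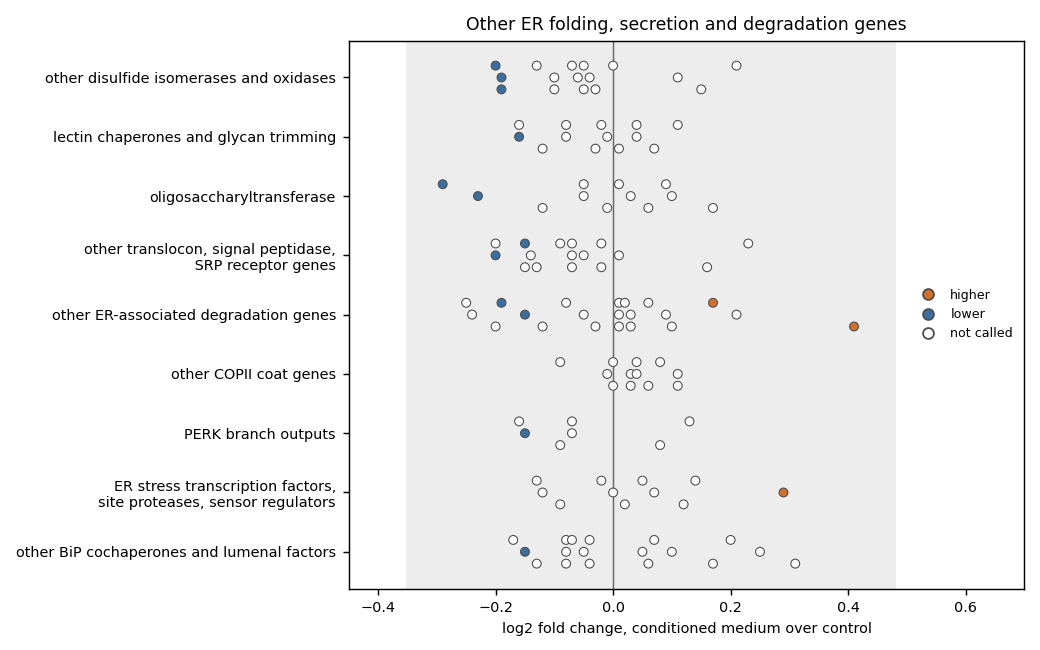
Log2 fold change of 126 further ER genes in 9 functional lists, coloured where called higher or lower and open where not; the grey band holds the 5th to 95th percentile of all 13897 tested genes (-0.35 to 0.48), and points are offset vertically for legibility. All points lie within the band.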

How the data were processed

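The authors deposited raw counts per gene (Entrez identifiers) for 4 TruSeq RNA libraries, a kit that does not mark strand. STAR 2.5.2b, featureCounts, Subread 1.4.6-p1 and mm10 are named per the submitters' processing notes; these sources give neither the annotation release nor the treatment of shared reads, so genes with near-identical copies or overlapping neighbours are uncertain. Of 27179 rows 25275 matched RefSeq genes of GRCm38.p6; the 1904 others (6.31% of counts) stayed in the tests.

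Counts were tested with edgeR 4.0.16 (R 4.3.3): filterByExpr (minimum count 10, total 15), TMM scaling (factors 0.987 to 1.01), two-sided quasi-likelihood test with group as the only term, Benjamini-Hochberg adjustment over 13897 genes, 2 residual degrees of freedom, biological coefficient of variation 3.58%. A call is an adjusted p under 0.05. SE is the size of the log2 fold change divided by √F, and 95% intervals use the moderated degrees of freedom. CPM floors cover counting error only. Data were simulated with known changes in a small share of genes, none of low count. Every simulated gene had the spread typical of its level, so genes with discordant replicates, such as Ero1l, were not represented. On these data the procedure recovered 56.8% of 1.25-fold and 90% of 1.5-fold changes. Of its calls there, 4.85% were false. Members not called at small folds are therefore not shown to be unchanged. Alternatives were 3 other scalings, 2 filters, a block, a robust spread, DESeq2 1.42.0, limma-voom 3.58.1, each library left out, counts thinned to the smallest total, and no unmatched rows.

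Members and lists were chosen with earlier results of these data known. All members are accounted for. Called members, the smallest p of each role, the sensors, Xbp1, Hspa5, Hsp90b1 and Dnajb9 are given in full, and of each further list the 3 called genes of largest change or the smallest p. Ubxn4, Ero1lb, Calr, Canx, Atf4 and Ddit3 were named after their values were seen.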

Additional observations from a re-analysis of the deposited data

How the results depend on the processing

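The 6 called members kept their direction in all 15 alternatives; of 495 member values over the alternatives 457 kept direction and side of the threshold, 20 lost a call, 7 gained one and 11 changed sign. Calls over all genes were 2330 (1186 higher, 1144 lower), against 918 (473 and 445) in DESeq2 and 569 to 3107 with a library left out (323 to 1485 higher, 246 to 1622 lower). Member calls were 6 (2 and 4), against 2 in DESeq2 (0 lower), 2 lower with no count filter, 1 higher with a robust spread, and 1 to 9 with a library left out (1 to 4 higher, 0 to 6 lower). The members' median of -0.03 ranged from -0.05 to -0.01 with a library left out. Further ER genes called were 15 (3 and 12), against 0 in DESeq2 (0 and 0), 8 with no filter (5 lower), 5 higher with upper-quartile scaling and 0 to 25 with a library left out (0 to 5 and 0 to 20). With 1 library left in a group, that library is assumed to vary like the other group. An adjusted p from such a fit, however low, is not a measure of the strength of evidence.

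The sign changes were all in members not called: Atf6 with upper-quartile scaling (5e-04), thinned counts (0.004) and without conditioned medium replicate 2 (0.02); Sdf2l1 (-0.02 to 0.26 over the left-out libraries), Edem1 (-0.07 to 0.005) and Edem2 (-0.01) without that library; Dnajc3 (-0.19 to 0.08), Creld2 (-0.18 to 0.11) and Sec61b (-0.18 to 0.001) without control replicate 1; and Sec24d with upper-quartile scaling (7e-04) and without control replicate 2 (0.01). Each fit with a library left out rests on fewer samples, and why a call ended in such a fit was not tested. The libraries share only replicate numbers, and deviations from the group mean of same-numbered libraries had a correlation of -0.0478 over 9633 genes; with a replicate block 2671 genes and 6 members were called, and the members' median stayed at -0.03. Of the 15 further genes named by rule, 14 were called and all 14 lost the call in DESeq2 and without conditioned medium replicate 2; Sec24c was called in no setting.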
